A study of Mus musculus with 10 samples.

Results

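The collagen genes of the mouse were followed through 10 RNA-seq libraries of Ly6G+ cells taken after myocardial infarction. A member was any row of the deposited table whose Ensembl identifier is protein-coding in the GRCm39 annotation and whose symbol is Col, a number, the letter a and a number, which gave 44 of 28185 genes. By chain type these were 11 fibrillar, 6 basement membrane type IV, 3 basement membrane zone, 7 beaded filament, 9 fibril-associated, 3 short-chain network and 4 transmembrane collagens, with Col26a1 left outside these classes.

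In the study, the left coronary artery of adult male C57Bl/6J mice was ligated, and Ly6G+ cells were enriched with magnetic microbeads at day 3 from the infarcted heart, after enzymatic dissociation, and from blood drawn by cardiac puncture. The Ly6G protein marks the surface of neutrophils in mice. Mesenchymal stromal cells (MSC), syngeneic with the recipients, were injected under the skin directly after ligation, or no MSC were given. The groups are MI (heart, no MSC, n = 3, libraries 13, 19 and 20), MI + MSC (heart, MSC, n = 3, libraries 15, 17 and 18), Blood (no MSC, n = 2, libraries 21 and 22) and Blood + MSC (MSC, n = 2, libraries 23 and 24). Ligation is shared by all groups, and the series holds no library of unoperated mice. Values below follow this order of libraries. Per the study's methods a single animal was the experimental unit unless stated otherwise, and the sources used here do not tie a heart library to a blood library of 1 mouse. The batch label repeats the group, so a batch and its group cannot be told apart.

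Collagens are extracellular proteins whose chains wind around each other into a stiff helix. Fibrillar collagens such as types I, III and V form the tensile fibrils of connective tissue, are made mainly by fibroblasts and build the scar of an infarcted heart. Type IV collagen forms the sheet-like network of basement membranes, which lies beneath endothelium and around cardiomyocytes, pericytes and smooth muscle cells, with types XV and XVIII beside it. Neutrophils are not known as a major source of either kind.

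The recovered reads on genes ran from 148594 in MI 13 to 8602711 in Blood + MSC 24, and 1 read was worth 8.40 normalized counts in MI 13 and 7.07 in Blood 21, with 0.168 to 2.30 elsewhere. A normalized count is a read count divided by the size factor of its library. The collagen genes took 0.131% to 0.318% of reads in heart libraries and 0.0398% to 0.0776% in blood libraries. Markers of other cells moved with tissue. The 12 cardiomyocyte markers summed to 3419 to 25555 normalized counts in heart and 51.7 to 98.9 in blood libraries, and the 12 neutrophil markers to 2547 to 13564 in heart and 16764 to 53435 in blood libraries. The sum over 9 platelet markers was 30975 in Blood 21 and 504 to 1778 in the other 9 libraries. The 893 olfactory and vomeronasal receptor genes, which neither tissue is known to use, took 0.0805% to 1.10% of reads in heart and 0.0138% to 0.0274% in blood libraries, the most in MI 13. The part of these RNAs in the results below was not tested.

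Which collagens led differed between heart and blood. Levels were compared between genes as normalized counts per kilobase of merged exons. In MI, the leading members were the type IV chains Col4a1 at 69.9 and Col4a2 at 68.8 per kilobase on average, followed by the fibrillar chains Col1a1 at 39.4 and Col3a1 at 38.5. In MI + MSC, Col3a1 led at 44.02, with Col1a1 at 42.9, Col4a1 at 30.5 and Col4a2 at 30.1. The order of these chains was compared library by library. Col4a1 was at 76.6, 59.1 and 73.99 per kilobase in MI, above the 28.6, 40.6 and 46.2 of Col3a1 in each of these libraries. With MSC, Col4a1 was at 23.3, 25.2 and 43.1, below the 41.7, 33.3 and 57.1 of Col3a1 in each. By merged exon length, Col3a1 was thus under Col4a1 in all MI libraries and over it in all MI + MSC libraries. The order in MI depends on the length, since with the longest transcript Col3a1 was above Col4a1 in MI 19 (73.7 against 66.7) and in MI 20 (83.9 against 83.5), and in MI + MSC it was above under every length used. In Blood, Col3a1 was at 34.3 per kilobase, ahead of Col1a2 at 15.8, Col1a1 at 12 and Col6a1 at 6.90. In Blood + MSC, Col3a1 at 31.9 and Col1a2 at 11.8 were followed by Col11a2 at 8.08 and Col1a1 at 5.64. Col3a1 led in both blood groups, and no type IV chain was among the first 4 there. Col1a1 and Col3a1 did not keep an order over the 3 MI libraries, and neither did Col4a1 and Col4a2. With the longest transcript as the length, Col3a1 came before Col1a1 in MI, and Col1a2 came before both type IV chains in MI + MSC.

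Summed per kilobase, the 11 fibrillar genes made up 25.8, 40.4 and 37.6% (MI), 55.4, 39.6 and 50.5% (MI + MSC), 74.2 and 74.2% (Blood) and 68.6 and 70.1% (Blood + MSC) of the collagen level. The 6 type IV genes made up 36.97, 31.3 and 36.8% (MI), 20.2, 23.03 and 22.99% (MI + MSC), 5.10 and 8.03% (Blood) and 7.29 and 8.32% (Blood + MSC). The ratio of the fibrillar to the type IV sum was 0.698, 1.29 and 1.02 (MI), 2.74, 1.72 and 2.19 (MI + MSC), 14.5 and 9.25 (Blood) and 9.41 and 8.43 (Blood + MSC). By merged exons, the type IV share was above 20% in every heart library and under 9% in every blood library. By longest transcript it was 16.1, 19.2 and 18.8% in MI + MSC. The MI and MI + MSC libraries did not overlap in the type IV share or in the ratio. The sum over all 44 genes, 494, 385 and 369 per kilobase (MI) and 229.6, 287 and 371 (MI + MSC), overlapped between the heart groups, against 134 and 81.3 (Blood) and 77.5 and 121 (Blood + MSC). Which class led in MI depends on the length used for each gene, as the mean fibrillar share was 34.6% and the mean type IV share 35.0% by merged exons, against 40.1% and 30.0% by longest transcript. The MI and MI + MSC libraries stayed apart in type IV share and ratio under every length used. These shares are a description with no test.

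**Figure D1:**
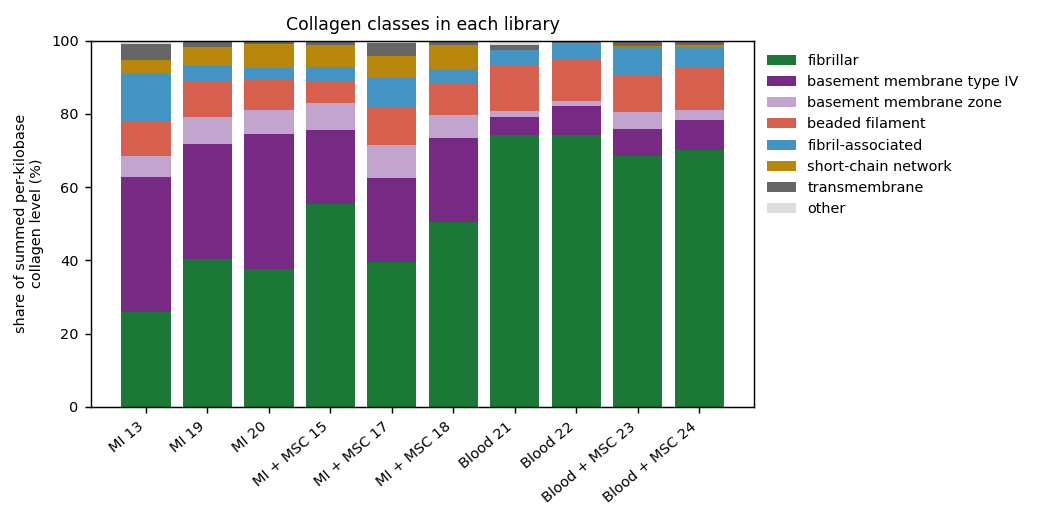
Share of each collagen class in the summed per-kilobase level of the 44 collagen genes (y axis, percent) in each of the 10 libraries (x axis), as stacked bars. Type IV (purple) takes 20.2% to 37.0% in the heart libraries and 5.10% to 8.32% in the blood libraries, where the fibrillar class (green) takes 68.6% to 74.2%.

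Promoters of a few members are shown because these members mark the range of patterns that follows: Col3a1 was at a like level in heart and blood, Col1a1 was higher in the infarct, and Col15a1 and Col8a1 were close to absent in Blood. Each is the 200 bases before the annotated start of the gene in GRCm39, read from the genome in the direction of transcription. Capitals mark the CCAAT box, the GC box spelled GGGCGG and the TATA box spelled TATAAA on either strand, so that the reverse complement of each is also in capitals, and the motifs share no overlapping letters here. The windows are chr1:45350498-45350697 on the plus strand, chr11:94826850-94827049 on the plus strand, chr4:47207382-47207581 on the plus strand and chr16:57575101-57575300 on the minus strand, and none overlaps an annotated exon.
Col3a1 promoter: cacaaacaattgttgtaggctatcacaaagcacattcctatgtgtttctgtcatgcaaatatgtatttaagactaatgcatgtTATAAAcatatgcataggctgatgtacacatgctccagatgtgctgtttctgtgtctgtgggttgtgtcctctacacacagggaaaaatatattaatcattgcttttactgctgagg
Col1a1 promoter: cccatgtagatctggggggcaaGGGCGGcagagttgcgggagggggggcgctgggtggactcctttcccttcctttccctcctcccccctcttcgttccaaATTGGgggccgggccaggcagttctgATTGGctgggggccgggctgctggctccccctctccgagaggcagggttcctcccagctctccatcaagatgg
Col15a1 promoter: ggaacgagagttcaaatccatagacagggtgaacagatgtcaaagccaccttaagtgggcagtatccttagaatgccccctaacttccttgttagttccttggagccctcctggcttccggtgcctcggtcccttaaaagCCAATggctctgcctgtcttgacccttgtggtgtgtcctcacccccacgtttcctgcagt
Col8a1 promoter: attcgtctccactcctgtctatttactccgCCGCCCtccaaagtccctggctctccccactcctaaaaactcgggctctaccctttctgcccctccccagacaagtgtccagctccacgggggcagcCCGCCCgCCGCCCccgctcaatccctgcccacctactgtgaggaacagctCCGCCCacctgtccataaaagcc
CCAAT was found 2 times before Col1a1 and 1 time before Col15a1, GGGCGG 1 time before Col1a1 and 4 times before Col8a1, and TATAAA 1 time before Col3a1. Over the 44 collagen genes, CCAAT was in 13 windows (29.5%), GGGCGG in 21 (47.7%) and TATAAA in 7 (15.9%), against 31.8%, 39.1% and 7.59% of the windows of 17888 protein-coding genes. A match is a description of letters and not a measured site. Bases after the annotated start were not searched, so a window without a motif does not show that the gene lacks it.

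The type IV genes lie in head-to-head pairs. Col4a1 at chr8:11248423-11362826 on the minus strand and Col4a2 at chr8:11362471-11499287 on the plus strand share 318 bases at the starts of their canonical transcripts. For Col4a4 and Col4a3 on chromosome 1, this overlap was 104 bases, while Col4a6 and Col4a5 on the X chromosome were 1281 bases apart. Reads were counted by strand, so the partners of a pair were counted separately, and no member overlapped another protein-coding gene on its own strand.

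Between infarct and blood, all collagens that limma called were higher in the infarct, above all Col4a1, Col4a2, Col15a1 and Col8a1, while the fibrillar chains Col3a1 and Col1a2 were not called. Other tools also called Col11a2, lower in the infarct. Of the 44 members, 29 reached a mean level of 10 normalized counts and were tested by limma, among 11549 genes in all. A call needed an adjusted p under 0.05 with a log2 fold change beyond 0.5 in either direction. In MI against Blood, 16 of the 29 were called higher, where 21.2% of all tested genes were, and 0 were called lower, where 13.5% were. The median log2 fold change was 2.08 over the 29 members and 0.15 over all tested genes. A low level excluded 15 members from the test. The limit is on the mean over all 10 libraries, so a member could pass it through high heart values alone. Col22a1 and Col23a1 did so, with at most 2.86 and 2.69 normalized counts in blood libraries and 84.04 and 58.8 in MI 13. The called members Col8a1, Col4a4, Col14a1, Col27a1, Col15a1 and Col7a1 also stayed under the limit in each blood library. Their highest blood values were 1.30, 3.25, 8.67, 8.75, 9.19 and 9.46. For such members, passing the limit and being called higher in MI rest on the same values. In bulk RNA, fewer cells of a type and less RNA per cell cannot be told apart.

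The fibrillar class had 10 tested members, of which 4 were called higher in MI, where 21.2% of all tested genes were. Col3a1, the chain of type III collagen encoded at chr1:45350698-45395840, was at 294, 417 and 475 (MI), 429, 342 and 586 (MI + MSC), 396 and 309 (Blood) and 237 and 419 (Blood + MSC) normalized counts. Col1a2, the alpha 2 chain of type I collagen encoded at chr6:4504814-4541555, was at 193, 243 and 253 (MI), 220.4, 177 and 306 (MI + MSC), 283 and 118 (Blood) and 103 and 195 (Blood + MSC) normalized counts. Heart and blood libraries overlapped for both, and neither was called (log2 fold change 0.15, SE 0.36, adjusted p = 0.777, and log2 fold change 0.32, SE 0.41, adjusted p = 0.573). The 95% interval of the difference was -0.65 to 0.95 for Col3a1 and -0.59 to 1.23 for Col1a2, so differences within these bounds could not be told from 0. Col1a1, the alpha 1 chain of type I collagen encoded at chr11:94827050-94843868, was at 168, 354 and 254 (MI), 257, 179 and 409 (MI + MSC), 134 and 23.4 (Blood) and 24.2 and 49.97 (Blood + MSC) normalized counts. All heart libraries lay above all blood libraries for Col1a1, with Blood 21 closest, and it was called higher in MI (log2 fold change 2.08, SE 0.63, adjusted p = 0.0265). That call needed Blood 22, as leaving this library out gave a log2 fold change of 0.87 (adjusted p = 0.249), and it was also missed without MI 19 (adjusted p = 0.0701) or MI 20 (adjusted p = 0.0509). The per-kilobase ratio of Col1a1 to Col1a2 was 1.68, 2.80 and 1.93 (MI), 2.25, 1.95 and 2.57 (MI + MSC), 0.915 and 0.383 (Blood) and 0.451 and 0.495 (Blood + MSC). The 2 chains of the same protein were thus in a ratio above 1.6 in every heart library and under 1 in every blood library. With the longest transcript as the length the ratio was 0.797 to 1.33 in heart and 0.182 to 0.436 in blood libraries.

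Type V collagen joins type I in its fibrils and limits their width. Its Col5a1 chain was at 176, 191 and 126 (MI), 129.8, 82.7 and 213 (MI + MSC), 14.1 and 31.8 (Blood) and 22.9 and 44.8 (Blood + MSC) normalized counts. Col5a2 was at 92.4, 98.04 and 127 (MI), 69.6, 110.2 and 116 (MI + MSC), 63.6 and 38.3 (Blood) and 27.1 and 49.1 (Blood + MSC) normalized counts. Both were called higher in MI, Col5a1 (log2 fold change 2.81, SE 0.46, adjusted p = 0.00143) and Col5a2 (log2 fold change 1.05, SE 0.37, adjusted p = 0.045). The Col5a2 call was near the threshold and was made in 10 of 22 alternative settings. The third chain, Col5a3, was at 25.2, 28.8 and 20.6 (MI), 12.8, 18.4 and 17.6 (MI + MSC), 14.1 and 15.6 (Blood) and 9.46 and 15.98 (Blood + MSC) normalized counts. Its MI libraries all lay above both Blood libraries, but it was not called (log2 fold change 0.66, SE 0.42, adjusted p = 0.231).

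The other fibrillar chains were low. Col27a1 was at 42.02, 24.99 and 16.98 (MI), 8.79, 43.6 and 17.6 (MI + MSC), 0 and 6.50 (Blood) and 6.83 and 8.75 (Blood + MSC) normalized counts. Col11a1 was at 58.8, 15.4 and 10.8 (MI), 8.11, 41.3 and 14.2 (MI + MSC), 7.07 and 1.95 (Blood) and 1.31 and 2.36 (Blood + MSC) normalized counts. Col27a1 was called (log2 fold change 2.78, SE 0.75, adjusted p = 0.0162) and Col11a1 was not (log2 fold change 1.99, SE 0.81, adjusted p = 0.0765), and Blood 21, with 0 and 1 read for them, could not show either. The Col27a1 call was made in 14 of 21 alternative settings. Col24a1, at 75.6, 8.65 and 8.24 (MI), 8.11, 34.4 and 11.5 (MI + MSC), 28.3 and 3.25 (Blood) and 5.78 and 16.3 (Blood + MSC) normalized counts, was not called (log2 fold change 0.69, SE 1.002, adjusted p = 0.616), and its groups overlapped. Col11a2, a chain of type XI collagen, had the opposite order. It was at 33.6, 11.5 and 9.78 (MI), 23.7, 34.4 and 13.6 (MI + MSC), 28.3 and 51.3 (Blood) and 76.7 and 43.4 (Blood + MSC) normalized counts, and both Blood + MSC libraries and Blood 22 lay above every heart library. Its log2 fold change was -1.17 (SE 0.56, adjusted p = 0.122) in MI against Blood and -1.29 (SE 0.56, adjusted p = 0.141) in MI + MSC against Blood + MSC, so limma called it in neither. On the recovered reads, edgeR and voom called it lower in both comparisons, with adjusted p = 0.0144 and 0.0113 in the first, and DESeq2 in the first alone, with adjusted p = 0.0442.

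The common type IV chains were separated by a wide gap between heart and blood. Col4a1, which with Col4a2 builds the network found in nearly all basement membranes, was at 571, 441 and 552 (MI), 174, 188 and 321 (MI + MSC), 14.1 and 18.8 (Blood) and 17.1 and 37.7 (Blood + MSC) normalized counts. Col4a2 was at 656, 407 and 419 (MI), 148, 229.6 and 270.5 (MI + MSC), 14.1 and 6.50 (Blood) and 8.67 and 14.6 (Blood + MSC) normalized counts. Every heart library was at least 148 normalized counts for either chain and every blood library at most 37.7. The ratio of mean levels in MI to Blood was 31.6 for Col4a1 (log2 fold change 4.83, SE 0.38, adjusted p = 1.35e-05) and 47.9 for Col4a2 (log2 fold change 5.37, SE 0.39, adjusted p = 9.12e-06). These calls held in all 22 alternative settings. Col4a1 had 2 and 29 reads in the Blood libraries and 65 and 224 in Blood + MSC.

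The chains of the specialised type IV networks were low. Col4a4 was at 50.4, 24.03 and 11.8 (MI), 9.46, 27.6 and 15.6 (MI + MSC), 0 and 3.25 (Blood) and 2.63 and 2.02 (Blood + MSC) normalized counts and was called higher in MI (log2 fold change 3.04, SE 0.73, adjusted p = 0.00928). Col4a3 was at 50.4, 15.4 and 11.3 (MI), 7.44, 25.3 and 14.9 (MI + MSC), 7.07 and 1.30 (Blood) and 2.10 and 2.36 (Blood + MSC) normalized counts, and missed the threshold (log2 fold change 2.07, SE 0.75, adjusted p = 0.0521). Col4a5, on the X chromosome, was at 50.4, 5.77 and 10.3 (MI), 4.73, 22.96 and 13.6 (MI + MSC), 21.2 and 13.6 (Blood) and 9.19 and 16.7 (Blood + MSC) normalized counts. Its heart and blood libraries overlapped, and it was not called (log2 fold change -0.16, SE 0.80, adjusted p = 0.893).

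The basement membrane zone collagens were all called higher in MI. Col15a1, type XV collagen of vessel and muscle basement membranes, was at 134, 137 and 129.7 (MI), 94.6, 117 and 118 (MI + MSC), 0 and 2.60 (Blood) and 9.19 and 7.57 (Blood + MSC) normalized counts. Its heart libraries spread little, and Blood had 0 and 4 reads (log2 fold change 5.49, SE 0.38, adjusted p = 6.83e-06). Col18a1, whose C-terminal part is released as endostatin, was at 25.2, 49.02 and 31.4 (MI), 17.6, 41.3 and 39.3 (MI + MSC), 14.1 and 1.95 (Blood) and 9.19 and 9.76 (Blood + MSC) normalized counts. The Blood libraries held 2 and 3 reads of it. The higher value of Blood 21 comes from its 7.07 normalized counts per read, so these reads do not show a difference in level between the Blood libraries. Col18a1 was called higher in MI at a ratio of mean levels of 4.38 (log2 fold change 2.17, SE 0.61, adjusted p = 0.0193), a call lost without Blood 22 (log2 fold change 1.16, adjusted p = 0.129) or MI 19 (adjusted p = 0.0611). With reads pooled over libraries by depth, which gives Blood 22 most of the weight, the ratio was 12.5 (95% interval 5.19 to 39.1). Such an interval is exact and covers counting error alone. Col7a1, the chain of anchoring fibrils, was at 58.8, 23.1 and 10.8 (MI), 6.76, 27.6 and 8.81 (MI + MSC), 0 and 4.55 (Blood) and 9.46 and 7.57 (Blood + MSC) normalized counts and was called (log2 fold change 2.90, SE 0.80, adjusted p = 0.018), a call that 15 of 21 alternative settings kept.

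**Figure D2:**
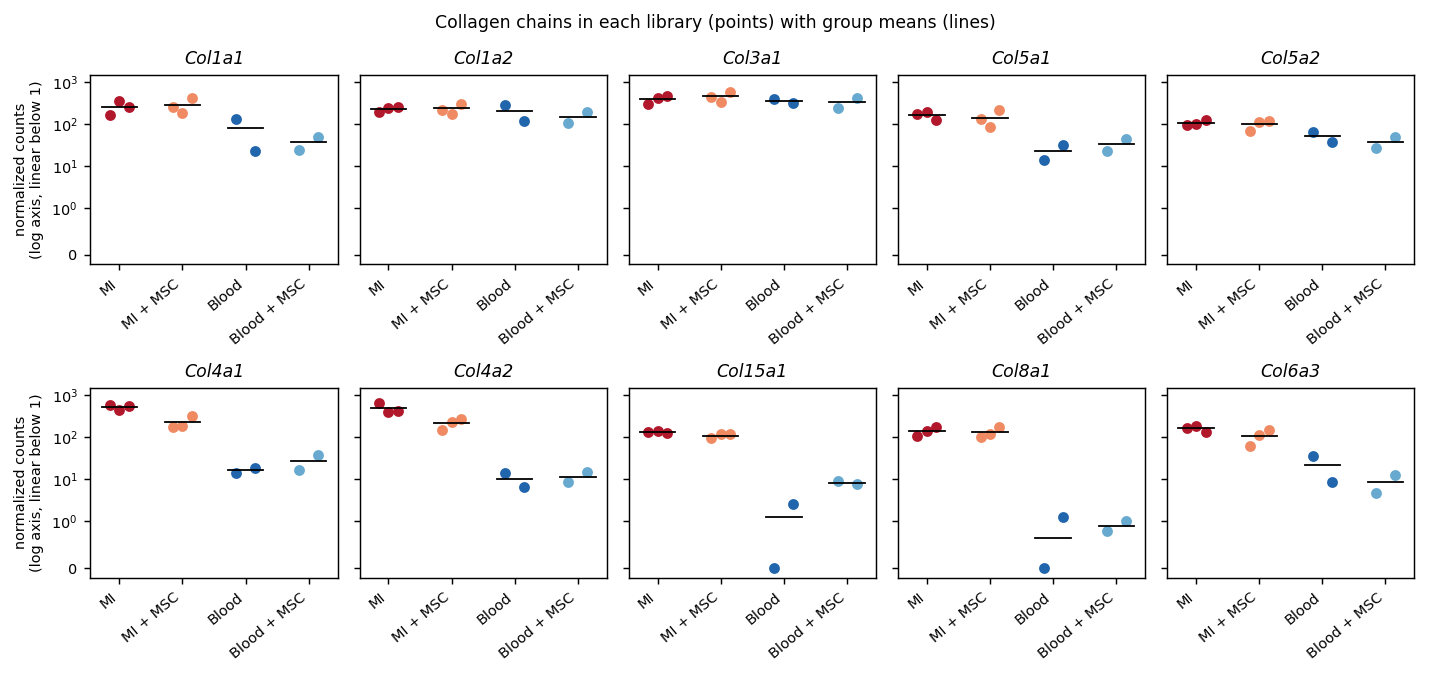
Normalized counts (y axis, log above 1 and linear below) of 10 collagen chains in each library (points) of the 4 groups (x axis), with group means as lines. Col1a2 and Col3a1 overlap between heart and blood, whereas Col4a1, Col4a2, Col15a1 and Col8a1 are separated by a wide gap, and Col4a1 and Col4a2 are lower in the MI + MSC than in the MI libraries.

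Col8a1, a short-chain network collagen of vessel walls, was well measured in the infarct and close to absent in blood. It was at 109, 143 and 180.1 (MI), 103, 119 and 176 (MI + MSC), 0 and 1.30 (Blood) and 0.788 and 1.01 (Blood + MSC) normalized counts. No blood library had more than 6 reads, with 0 and 2 (Blood) and 3 and 6 (Blood + MSC). With reads pooled by depth, the ratio of MI to Blood was 139 (95% interval 38.2 to 1148), and limma called it higher (log2 fold change 5.80, SE 0.40, adjusted p = 6.74e-06). Under MSC, its log2 fold change was 5.50 (SE 0.40, adjusted p = 5.69e-05).

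Among the beaded filament chains of type VI collagen, which surround cells in most tissues, Col6a3 was called and Col6a1 and Col6a2 were not. Col6a1 was at 67.2, 67.3 and 55.6 (MI), 22.3, 36.7 and 58.98 (MI + MSC), 49.5 and 31.2 (Blood) and 22.1 and 42.6 (Blood + MSC) normalized counts. Col6a2 was at 50.4, 62.5 and 62.8 (MI), 32.4, 36.7 and 50.8 (MI + MSC), 42.4 and 24.04 (Blood) and 22.3 and 40.5 (Blood + MSC) normalized counts. Col6a3 was at 168, 182 and 137 (MI), 63.5, 115 and 151 (MI + MSC), 35.3 and 8.45 (Blood) and 4.73 and 12.96 (Blood + MSC) normalized counts. The MI libraries lay above both Blood libraries for all 3. The tests gave Col6a3 higher in MI (log2 fold change 3.05, SE 0.55, adjusted p = 0.00241), and neither Col6a1 (log2 fold change 0.66, SE 0.43, adjusted p = 0.255) nor Col6a2 (log2 fold change 0.83, SE 0.38, adjusted p = 0.108) passed. The difference between the chains was not tested. Col6a5 was at 75.6, 10.6 and 8.24 (MI), 4.06, 18.4 and 12.2 (MI + MSC), 14.1 and 8.45 (Blood) and 7.88 and 12.1 (Blood + MSC) normalized counts, with 9 reads in MI 13, and was not called (log2 fold change 0.73, SE 0.84, adjusted p = 0.521).

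The fibril-associated collagens coat fibrils or link them to the matrix around them. Col12a1 was at 92.4, 46.1 and 33.5 (MI), 33.1, 45.9 and 49.5 (MI + MSC), 14.1 and 4.55 (Blood) and 3.68 and 7.74 (Blood + MSC) normalized counts and was called higher in MI (log2 fold change 2.40, SE 0.53, adjusted p = 0.00665). Col14a1 was at 58.8, 17.3 and 11.8 (MI), 9.46, 18.4 and 28.5 (MI + MSC), 0 and 5.85 (Blood) and 8.67 and 4.71 (Blood + MSC) normalized counts. Col22a1 was at 84.04, 11.5 and 8.75 (MI), 8.11, 20.7 and 12.2 (MI + MSC), 0 and 0.650 (Blood) and 1.58 and 2.86 (Blood + MSC) normalized counts. Both were called higher in MI, Col14a1 (log2 fold change 2.68, SE 0.79, adjusted p = 0.0234) and Col22a1 (log2 fold change 3.33, SE 0.87, adjusted p = 0.0143). The call was made in 13 of 21 alternative settings for Col14a1 and in 18 of 21 for Col22a1. For Col22a1 the pooled reads gave a ratio of 21.1 (95% interval 3.58 to 856). Col16a1 was at 75.6, 19.2 and 12.9 (MI), 8.11, 20.7 and 14.9 (MI + MSC), 7.07 and 5.85 (Blood) and 4.99 and 9.42 (Blood + MSC) normalized counts and missed the threshold (log2 fold change 1.78, SE 0.69, adjusted p = 0.065). Col20a1 was at 25.2, 3.84 and 5.66 (MI), 5.41, 6.89 and 6.10 (MI + MSC), 21.2 and 3.90 (Blood) and 11.8 and 10.3 (Blood + MSC) normalized counts, overlapped between the groups and was not called (log2 fold change -0.13, SE 0.78, adjusted p = 0.908). The transmembrane chain Col23a1 was at 58.8, 10.6 and 5.15 (MI), 5.41, 18.4 and 4.75 (MI + MSC), 0 and 0.650 (Blood) and 1.31 and 2.69 (Blood + MSC) normalized counts and was called higher in MI (log2 fold change 2.94, SE 0.95, adjusted p = 0.0336), a call that 9 of 21 alternative settings kept. Its pooled reads gave a ratio of 15.2 (95% interval 2.51 to 620.3).

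In several of these low genes MI 13 held the highest value of all libraries. The olfactory and vomeronasal receptor genes were at 3.16 normalized counts per kilobase in MI 13 and at 0.280 to 1.27 in the other heart libraries. In MI 13, Col22a1 was at 8.80, Col23a1 at 9.94 and Col14a1 at 8.39 per kilobase, with 7 to 10 reads each, whereas Col4a1 was at 76.6. Whether the RNA behind the receptor reads adds to these members was not tested. With MI 13 and Blood 21 left out, a setting chosen after seeing the data, 14 members were called higher (19.9% of all tested genes) and 1, Col11a2, was called lower (18.3%). Col14a1, Col7a1, Col27a1 and Col23a1 lost the call there, and Col4a3 and Col6a2 gained it.

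Under the limit on the mean lay 15 members, which were not tested. Their means over the 10 libraries were 1.52 (Col10a1) to 9.37 (Col19a1) normalized counts. In normalized counts over all libraries, with the reads summed, these were in the fibrillar class Col2a1 at 0.650 to 33.6 from 64 reads and in the type IV class Col4a6 at 0 to 11.5 from 95 reads. The beaded filament chains were Col6a4 at 0 to 25.2 from 78 reads, Col6a6 at 0 to 13.8 from 82 reads and Col28a1 at 0 to 27.6 from 77 reads. The fibril-associated chains were Col9a1 at 0 to 42.02 from 60 reads, Col9a2 at 0 to 33.6 from 46 reads, Col9a3 at 0 to 16.8 from 83 reads and Col19a1 at 0 to 42.02 from 71 reads. The short-chain network chains were Col8a2 at 0 to 8.40 from 32 reads and Col10a1 at 0 to 8.40 from 13 reads. The transmembrane chains were Col13a1 at 0.650 to 25.2 from 46 reads, Col17a1 at 0 to 33.6 from 74 reads and Col25a1 at 0 to 25.3 from 92 reads. Col26a1, outside these classes, was at 0 to 33.6 from 38 reads. All 15 had their highest value in MI 13 or MI + MSC 17, the shallowest library of each heart group. Col4a6, the partner of Col4a5, was at 0, 3.84 and 1.54 (MI), 4.06, 11.5 and 2.71 (MI + MSC), 0 and 9.75 (Blood) and 5.78 and 6.06 (Blood + MSC) normalized counts, so that Blood 22 and both Blood + MSC libraries lay above all MI libraries. MI 13 could not show a level like that of Blood + MSC, as 1 read there is worth 8.40 normalized counts. The values of MI 19 and MI 20 rest on 4 and 3 reads. Col2a1, the cartilage collagen, had 4, 8 and 16 reads in MI and 1 and 1 in Blood.

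The same contrast was made under MSC treatment, between group means from other libraries, though both comparisons share 1 estimate of the spread from the fit over all 10. Between MI + MSC and Blood + MSC, 9 of the 29 members were called higher, where 8.23% of all tested genes were, and 0 were called lower, where 5.85% were. The median log2 fold change was 1.35 over the members and 0.09 over all tested genes. The 9 were Col8a1, Col4a2 at 3.99 (SE 0.39), Col15a1 at 3.43 (SE 0.38), Col6a3 at 3.39 (SE 0.55), Col4a1 at 3.01 (SE 0.38), Col1a1 at 2.86 (SE 0.63), Col12a1 at 2.57 (SE 0.53), Col5a1 at 1.97 (SE 0.46) and Col5a2 at 1.35 (SE 0.37). All 9 were also among the 16 called in MI against Blood. Fewer members were called without Blood + MSC 23, which left a lone library in that group. The change over all tested genes in that setting is not given. Col3a1 (log2 fold change 0.48, SE 0.36, adjusted p = 0.391) and Col1a2 (log2 fold change 0.68, SE 0.41, adjusted p = 0.287) were again not called.

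**Figure D3:**
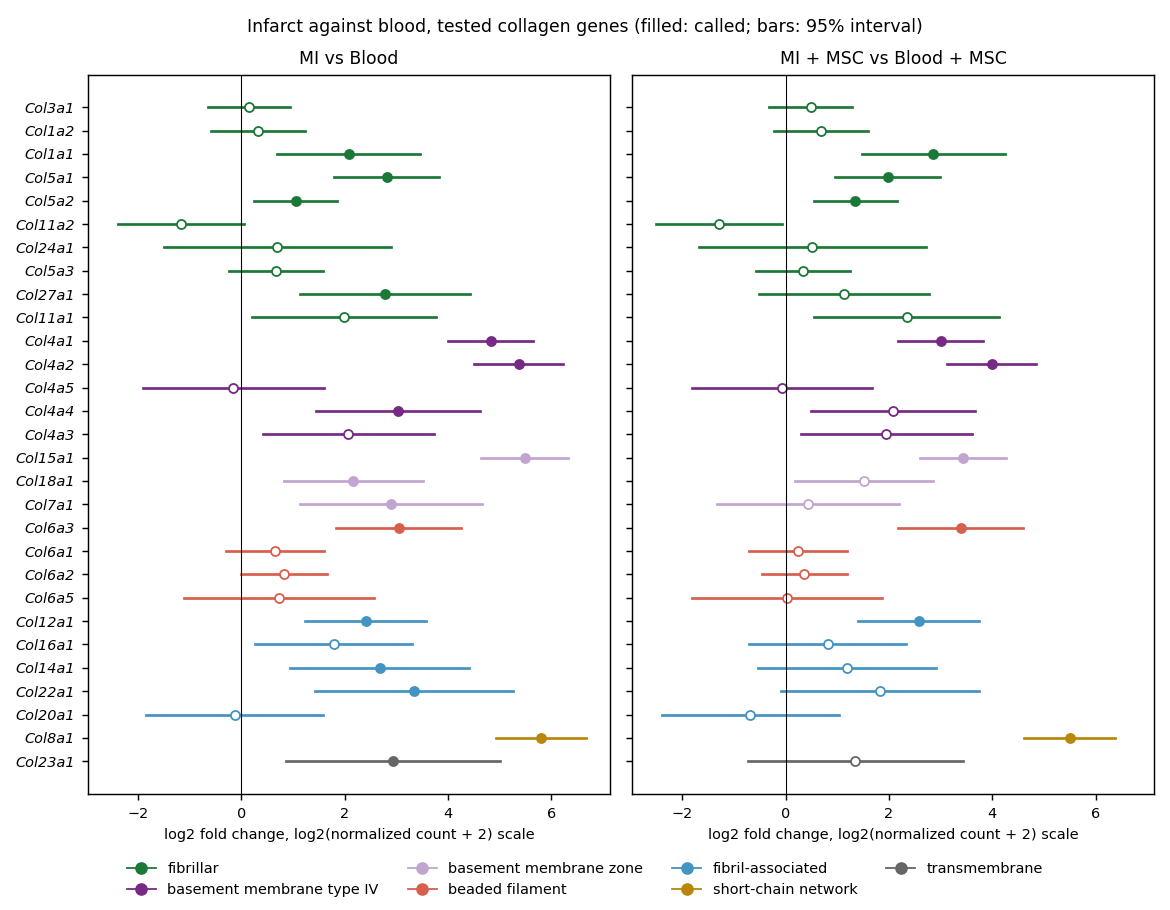
Log2 fold change (x axis, on the log2(normalized count + 2) scale) of the 29 tested collagen genes (y axis, coloured by class) in MI against Blood (left) and in MI + MSC against Blood + MSC (right), with 95% intervals as bars and filled points for called genes. Col8a1, Col15a1, Col4a1 and Col4a2 lie furthest to the right in the left panel, while Col6a3 (3.39) lies beyond Col4a1 (3.01) in the right panel. The intervals of Col3a1 and Col1a2 include 0 in both panels, and Col11a2 lies furthest to the left in both.

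In MI against Blood, 22 of 29 members were higher without overlap between the libraries, where 31.6% of all tested genes were, and 0 were lower, where 23.6% were. Under MSC, 17 were higher without overlap (33.8% of all tested genes) and 2 were lower (29.7%), namely Col11a2 and Col20a1. Of the called members, Col8a1, Col15a1, Col4a1 and Col4a2 were called in both comparisons in every alternative setting. Other tools were run on the recovered reads. Higher in MI than in Blood were 12 members by edgeR (17.5% of all tested genes), 16 by DESeq2 (18.1%) and 9 by voom with quality weights (10.2%), and each of these tools called 1 lower (18.9%, 15.8% and 17.6%). Under MSC, the same tools called 13 (16.3%), 14 (17.3%) and 14 (21.6%) higher, and 1 (16.4%), 0 (11.6%) and 1 (20.7%) lower. At an unadjusted p under 0.05, limma had 0 members lower in the first and 1 in the second comparison. Scaling by library size moved the median of all tested genes in MI against Blood from 0.15 to 0.63 and the share of higher genes among those called from 61.2% to 82.3%. Under it 20 members were called higher, where 32.7% of all tested genes were, and 0 lower, where 7.03% were, and the median of the members was 2.57.

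In the infarct, no collagen passed the test between MI + MSC and MI, and the members nearest to it were Col4a1 and Col4a2, whose libraries did not overlap. Of all tested genes, 9.6% were lower without overlap in this comparison. Whether MSC treatment altered the cardiac Ly6G+ cells is a main question of the study. Between MI + MSC and MI, limma called 0 of 29 members in either direction, as it called 0% of all tested genes. At an unadjusted p under 0.05 it had 925 of 11549 tested genes and 2 of 29 members, Col4a1 and Col4a2, both lower. Their values were 571, 441 and 552 in MI against 174, 188 and 321 in MI + MSC for Col4a1 and 656, 407 and 419 against 148, 229.6 and 270.5 for Col4a2, with no overlap for either. The log2 fold changes were -1.23 for Col4a1 (SE 0.34, limma adjusted p = 0.517) and -1.19 for Col4a2 (SE 0.35, adjusted p = 0.517). On the recovered reads, voom with quality weights called both lower, with adjusted p = 0.0474 and 0.0464, where it called 2.16% of all tested genes lower and 0.381% higher. DESeq2 called 0 members, with 0.19% of all tested genes higher and 0.459% lower, and edgeR called 0 members and 0% of the genes. Over 22 alternative settings, the log2 fold change stayed between -1.51 and -1.07 for Col4a1 and between -1.38 and -0.94 for Col4a2. Several of these settings could not move it, namely a blood library left out, these groups fitted alone or another limit on the mean.

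The fibrillar chains that carry most of the fibrillar level were close to 0 in the same comparison. Col3a1 had a log2 fold change of 0.19 with a 95% interval of -0.53 to 0.90, Col1a1 of 0.11 with -1.13 to 1.34, and Col1a2 of 0.00 with -0.81 to 0.81. For all 3, the MI and MI + MSC libraries overlapped. Col8a1, which was near 0 in blood, was at -0.13 with -0.91 to 0.66, and Col6a3 at -0.63 with -1.71 to 0.45. Of the 29 members, 25 had a log2 fold change below 0, where 5903 of 11549 tested genes had. The median was -0.40 over the members and -0.01 over all tested genes. Without MI 13 the median of the members was -0.12. Besides the type IV pair, Col15a1 (-0.29, 95% interval -1.03 to 0.46) and Col5a3 (-0.56, -1.37 to 0.26) were lower without overlap, making 4 of 29, where 9.6% of all tested genes were, and 0 were higher, where 7.05% were.

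**Figure D4:**
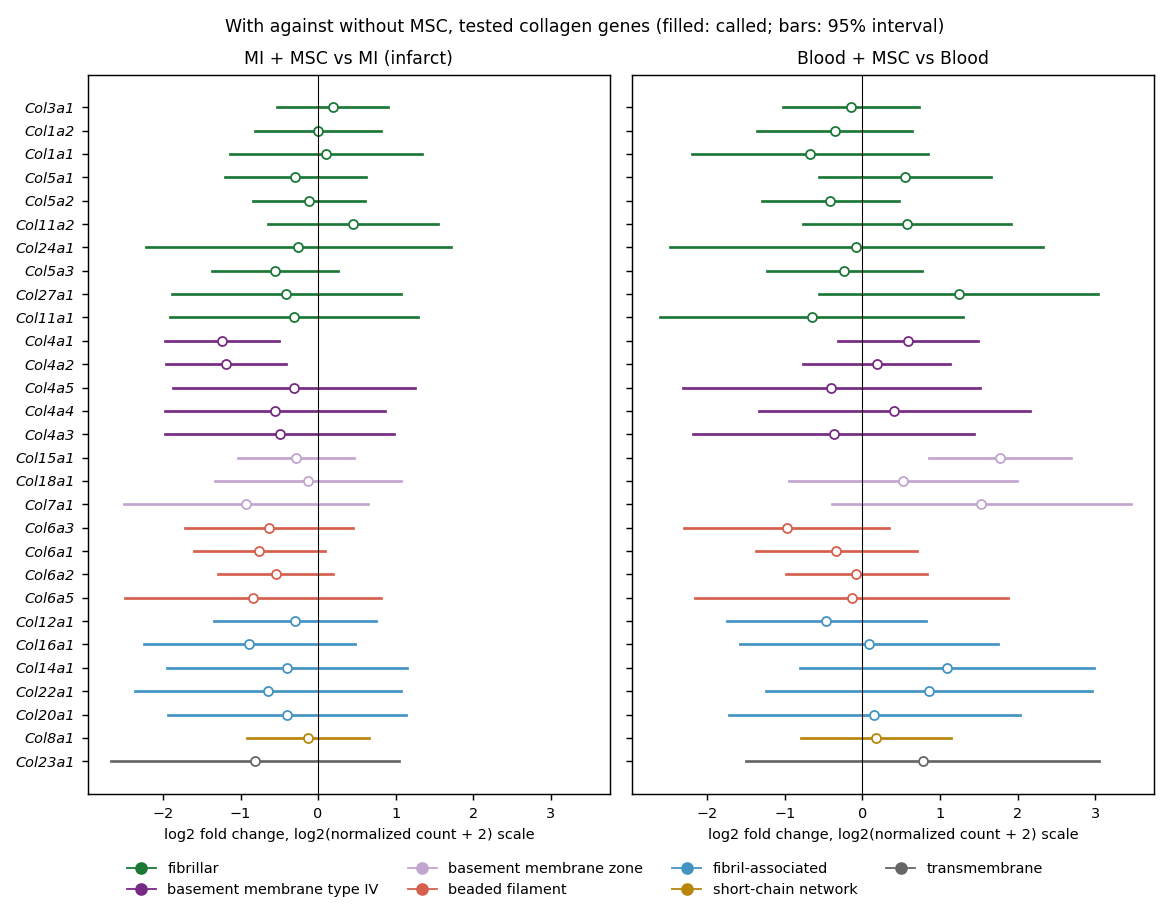
Log2 fold change (x axis, on the log2(normalized count + 2) scale) of the 29 tested collagen genes (y axis, coloured by class) with against without MSC, in the infarct (left) and in blood (right), with 95% intervals as bars. No point is filled, as no member was called, and the intervals of Col4a1 and Col4a2 in the infarct and of Col15a1 in blood do not reach 0.

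In blood, no member passed the test, neither those low there nor Col3a1 and Col1a2, whose levels overlapped those in the heart. In Blood + MSC against Blood, limma called 0 of 29 members and 0% of all tested genes, while 848 of all tested genes and 1 member had an unadjusted p under 0.05. DESeq2 also called 0 members, with 0.0433% of all tested genes higher and 1.38% lower, and edgeR and voom called 0 members and 0% of the genes. The member was Col15a1, at 0 and 2.60 (Blood) and 9.19 and 7.57 (Blood + MSC) normalized counts (log2 fold change 1.77, SE 0.42, adjusted p = 0.672). These values came from 0 and 4 reads in the Blood and 35 and 45 reads in the Blood + MSC libraries. In Blood 21, 3 reads are worth 21.2 normalized counts, which is above both Blood + MSC values, so this library could not show a level like theirs. Without Blood 22, Col15a1 was called higher at a log2 fold change of 2.37 (adjusted p = 0.00175), with Blood 21 as the lone Blood library. The median log2 fold change was 0.08 over the members and 0.11 over all tested genes. Col15a1, Col7a1, Col27a1, Col22a1 and Col23a1 were higher without overlap, 5 of 29 where 21% of all tested genes were, and 0 were lower, where 15.4% were. Blood 21 had 0 reads for all 5.

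The difference between the MSC effects in heart and blood was tested as an interaction. limma called 0 of 29 members and 0% of all tested genes, with 838 of 11549 genes and 3 of 29 members at an unadjusted p under 0.05. edgeR, DESeq2 and voom called 0 members. The 3 were Col15a1 at -2.06 (SE 0.54), Col4a1 at -1.82 (SE 0.53) and Col4a2 at -1.38 (SE 0.56), each with adjusted p = 0.63. Each had a lower log2 fold change in the heart than in blood, as 6374 of the 11549 tested genes had. Without Blood 22, 1 member was called, Col15a1 at -2.66 (adjusted p = 0.0045).

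Genes that process, join or bind collagens were followed on lists chosen by function. Of 13 tested genes for collagen hydroxylation, folding and secretion, 3 were called higher and 0 lower in MI against Blood, a higher share near the 21.2% of all tested genes. P4hb, a subunit of prolyl 4-hydroxylase, was at 412, 817 and 910.0 (MI), 1012, 783 and 833 (MI + MSC), 488 and 501 (Blood) and 518 and 563 (Blood + MSC) normalized counts and not called (log2 fold change 0.45, SE 0.37, adjusted p = 0.371). Serpinh1, the collagen chaperone HSP47, was at 311, 391 and 424 (MI), 229, 239 and 380.3 (MI + MSC), 106 and 70.8 (Blood) and 50.96 and 88.8 (Blood + MSC) normalized counts and was called higher in MI (log2 fold change 2.08, SE 0.35, adjusted p = 0.00157). Ppib (log2 fold change -0.26, SE 0.34, adjusted p = 0.567) and Mia3 (log2 fold change -0.19, SE 0.28, adjusted p = 0.617) serve the folding and export of many proteins and were not called. Between MI + MSC and Blood + MSC, 1 gene of this list was called higher, Serpinh1 at 1.998 (SE 0.35), and 1 lower, Plod3 at -1.82 (SE 0.51), a lysyl hydroxylase named here after its values were seen.

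All 8 tested genes for procollagen cleavage and cross-linking were called higher in MI than in Blood, and 4 in MI + MSC than in Blood + MSC, where 21.2% and 8.23% of all tested genes were. Pxdn, the peroxidase that forms sulfilimine cross-links in type IV collagen, was at 185, 108 and 127 (MI), 50.02, 57.4 and 104 (MI + MSC), 7.07 and 3.25 (Blood) and 3.94 and 4.54 (Blood + MSC) normalized counts. Lox, the lysyl oxidase that starts cross-linking of fibrils, was at 67.2, 97.1 and 99.3 (MI), 66.2, 103 and 111 (MI + MSC), 21.2 and 12.99 (Blood) and 8.67 and 13.6 (Blood + MSC) normalized counts. Their differences between MI and Blood were 4.32 (SE 0.42) for Pxdn and 2.25 (SE 0.37) for Lox on the log2 scale, with adjusted p = 5.80e-05 and 0.00145. Between MI + MSC and MI, Pxdn had a log2 fold change of -1.004 (SE 0.38, adjusted p = 0.59) and Lox of 0.08 (SE 0.33, adjusted p = 0.946). Loxl1 and Loxl2 were also called higher in MI, at 1.66 (SE 0.52) and 2.78 (SE 0.75).

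Of 12 other basement membrane proteins tested, 10 were called higher and 0 lower in MI against Blood (21.2% and 13.5% of all tested genes), and 7 and 0 in MI + MSC against Blood + MSC (8.23% and 5.85%). Hspg2, which encodes perlecan, was at 588, 485 and 452 (MI), 132, 184 and 307 (MI + MSC), 21.2 and 16.9 (Blood) and 22.6 and 38.4 (Blood + MSC) normalized counts (log2 fold change 4.60, SE 0.37, adjusted p = 1.63e-05). Lamc1, the gamma 1 chain of most laminins, was at 202, 288 and 296 (MI), 160.2, 181 and 258 (MI + MSC), 42.4 and 43.5 (Blood) and 26.5 and 45.3 (Blood + MSC) normalized counts (log2 fold change 2.53, SE 0.33, adjusted p = 0.000349). Nid1, which links laminin to type IV collagen, was also called (log2 fold change 2.83, SE 0.66, adjusted p = 0.00825), and Agrn, a heparan sulfate proteoglycan, was not (log2 fold change 0.16, SE 0.29, adjusted p = 0.709). With MSC in the heart, 0 of the 12 were called and 4 had an unadjusted p under 0.05, with 11 of 12 below 0 and a median of -0.90. In this comparison 5903 of 11549 tested genes were below 0. Hspg2 had a log2 fold change of -1.36 there (SE 0.33, adjusted p = 0.38), and its MI and MI + MSC libraries did not overlap.

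Of 8 tested collagen receptors, 3 were called higher and 1 lower in MI than in Blood, where 21.2% and 13.5% of all tested genes were. Itga1, the integrin subunit that binds type IV collagen, was at 168, 170.1 and 159 (MI), 40.6, 91.8 and 83.4 (MI + MSC), 0 and 7.15 (Blood) and 4.99 and 7.91 (Blood + MSC) normalized counts and was called higher (log2 fold change 5.29, SE 0.58, adjusted p = 0.000117). Gp6, the collagen receptor of platelets, was at 16.8, 4.81 and 5.66 (MI), 3.38, 2.30 and 2.03 (MI + MSC), 1399 and 28.6 (Blood) and 10.5 and 10.3 (Blood + MSC) normalized counts and was called lower (log2 fold change -4.38, SE 1.18, adjusted p = 0.016), with its highest value in Blood 21, the library with the highest platelet markers. Itgb1, the shared beta subunit (log2 fold change -0.11, SE 0.52, adjusted p = 0.887), and Lair1, an inhibitory receptor of leukocytes (log2 fold change -0.17, SE 0.49, adjusted p = 0.81), were not called. Between MI + MSC and Blood + MSC, 3 were called higher (8.23% of all tested genes) and 0 lower (5.85%). In both MSC comparisons, limma called 0 genes of any of these 4 lists, and at an unadjusted p under 0.05 had 0, 1, 4 and 2 genes of them in the heart and 0, 1, 0 and 2 in blood.

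Markers of cells that make collagens moved along with these groups. The 12 endothelial markers summed to 3160.1, 2969 and 3306 (MI), 760.4, 1208 and 1413 (MI + MSC), 629 and 101 (Blood) and 75.9 and 89.3 (Blood + MSC) normalized counts. In Blood 21, 586 of the 629 were Pecam1, which platelets also carry, and Cdh5, which defines endothelium, was at 7.07 and 6.50 in the Blood libraries against 513, 478 and 510.1 in MI. In MI against Blood, the log2 fold change was 1.42 (SE 0.73, adjusted p = 0.149) for Pecam1 and 5.84 (SE 0.34, adjusted p = 3.45e-06) for Cdh5. Of 11 tested endothelial markers, 10 were called higher in MI than in Blood and 10 in MI + MSC than in Blood + MSC. For these and the other marker lists, the shares of all tested genes called in these comparisons were 21.2% and 8.23% higher and 13.5% and 5.85% lower. With MSC in the heart, all 11 were below 0 with a median of -1.55, and 10 had an unadjusted p under 0.05, but limma called 0. In this comparison 5903 of 11549 tested genes were below 0. The sum over 10 mural cell markers was 1294, 1122 and 1055 (MI), 299, 512 and 736 (MI + MSC), 120.1 and 70.2 (Blood) and 75.1 and 73.4 (Blood + MSC). The sum over 11 fibroblast markers was 529, 594 and 555 (MI), 271, 363 and 513 (MI + MSC), 283 and 111 (Blood) and 162 and 217 (Blood + MSC). Of 9 tested mural markers, 7 were called higher in MI than in Blood and 6 in MI + MSC than in Blood + MSC, with Rgs5 of pericytes called in the first at 8.29 (SE 0.40, adjusted p = 2.79e-06) and Acta2 of smooth muscle not called at -0.10 (SE 0.42, adjusted p = 0.868). Of 10 tested fibroblast markers, 4 were called in each, and Dcn was at 1.25 (SE 0.36, adjusted p = 0.022) and Postn at 4.14 (SE 0.67, adjusted p = 0.00129). Endothelial and mural sums of MI and MI + MSC did not overlap, nor did the fibroblast sums, where MI + MSC 18 at 513 was just under MI 13 at 529.

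Set against these markers, the sum of Col4a1 and Col4a2 was 0.388, 0.286 and 0.294 (MI) and 0.423, 0.346 and 0.419 (MI + MSC) per normalized count of endothelial markers, so the heart groups overlapped in this ratio. In blood libraries it was 0.0449 and 0.250 without and 0.339 and 0.586 with MSC. The sum of Col1a1, Col1a2 and Col3a1 per normalized count of fibroblast markers was 1.24, 1.71 and 1.77 (MI), 3.34, 1.92 and 2.54 (MI + MSC), 2.88 and 4.05 (Blood) and 2.25 and 3.06 (Blood + MSC), higher in every MI + MSC than in every MI library. The part of each cell type in the collagen values was not tested.

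**Figure D5:**
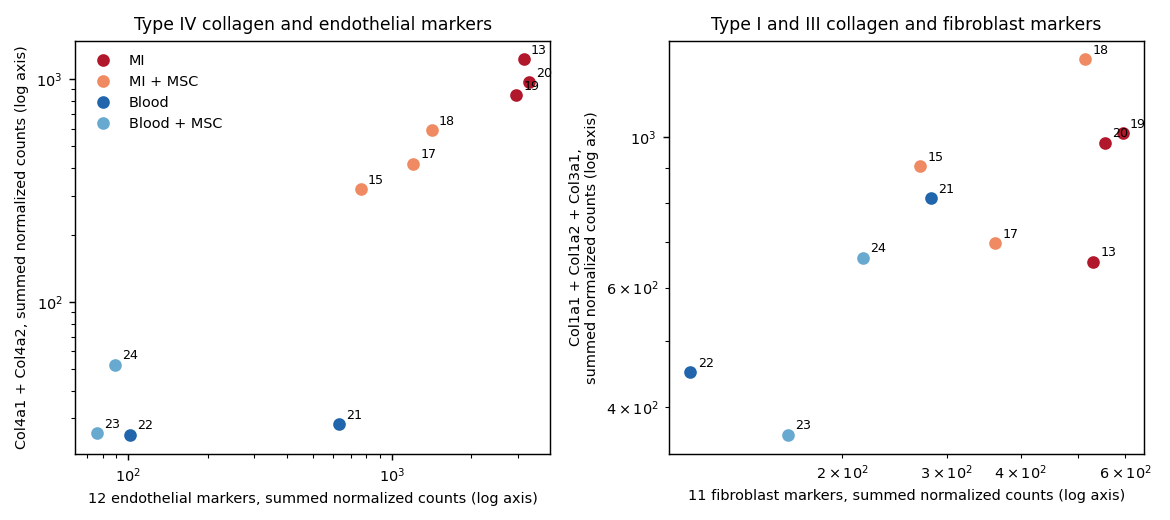
Summed normalized counts of Col4a1 and Col4a2 against 12 endothelial markers (left) and of Col1a1, Col1a2 and Col3a1 against 11 fibroblast markers (right), 1 point per library with its number, on log axes. The MI + MSC libraries lie below and to the left of the MI libraries in the left panel, and Blood 21 lies apart from the other blood libraries through Pecam1.

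Of the remaining lists, all 12 cardiomyocyte markers were called higher in MI than in Blood and 11 in MI + MSC than in Blood + MSC. Neutrophil markers had 10 of 12 called lower in MI and 3 of 12 in MI + MSC, platelet markers 9 of 9 and 1 of 9, and macrophage markers 0 of 10 in MI, with 1 of 10 higher and 1 lower in MI + MSC. In MI against Blood, the log2 fold change was 8.44 (SE 0.76, adjusted p = 3.63e-05) for Ttn, -3.06 (SE 0.75, adjusted p = 0.0106) for S100a9, -4.32 (SE 1.20, adjusted p = 0.018) for Ppbp and -1.29 (SE 0.72, adjusted p = 0.184) for Lyz2. In MI + MSC against MI, 5903 of 11549 tested genes were below 0. The 12 cardiomyocyte markers were all below 0 there, with a median of -1.32 and 9 at an unadjusted p under 0.05. Their sums were 24482, 25555 and 8600.0 (MI) and 3419, 5274 and 13459.6 (MI + MSC), which overlapped. The macrophage marker sums were 4362, 13198 and 11730.3 (MI) and 16854, 10299 and 17686 (MI + MSC), which overlapped too.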

How the data were processed

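RNA-seq was made of Ly6G+ cells from infarcted hearts and blood of mice at day 3 after ligation, in 10 libraries. Per the labels and the study's methods, the authors trimmed reads with Trimmomatic, aligned them to GRCm39 with STAR, took out PCR duplicates with Picard and left out mitochondrial reads, counted reads per gene by strand with featureCounts and normalized by the size factors of DESeq2. What they deposited is a signal, namely read counts that the authors divided by 1 size factor per library. The other deposited table held the same 281850 of 281850 values and was not used, and no sample column was left unused. In each library 100% of values came to a whole number of reads, within 0.01 of a read, so reads were recovered from them. Reads per library were 148594 to 8602711, and 3 reads are worth 0.505 to 25.2 normalized counts.

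Of 28185 identifiers, 27906 were found in the GENCODE annotation of GRCm39, 17888 as protein-coding genes. Samples were grouped by the titles of the labels. limma (version 3.58.1, R 4.3.3) with a mean-variance trend was fitted to log2(normalized count + 2) of the 11549 genes whose mean reached 10, with 1 mean per group over all libraries. P-values were adjusted by Benjamini-Hochberg over all of these genes. A call needed an adjusted p under 0.05 with a log2 fold change beyond 0.5 in either direction, or for the interaction the adjusted p alone. Fold changes on this scale understate those of low genes. The code was tested on simulated data with 200 changed genes. Alternatives were edgeR (4.0.16), DESeq2 (1.42.0) and voom with quality weights on the recovered reads, pseudocounts of 1 and 5, no limit or a mean of at least 20, scaling by TMM or library size, a fit to the groups compared alone, and each library left out. A setting without MI 13 and Blood 21 was chosen after seeing the data. Levels between genes were divided by merged exon length, or by longest transcript or coding length.

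The collagen genes and all gene lists were chosen with earlier results of these data known. All 29 tested members are given in every library and the other 15 by their range and reads. Of each list, up to 4 genes of highest mean are named, where Gp1bb of the platelet list has no row in the table. Figures were drawn with matplotlib 3.10.9 in Python 3.11.15.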

Additional observations from a re-analysis of the deposited data

Results flagged for a closer look

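For Col15a1, type XV collagen, the MSC libraries lay on opposite sides in heart and blood. All 3 MI + MSC libraries were under all MI libraries, and both Blood + MSC libraries were over both Blood libraries. The difference of the log2 fold changes was -2.06 (SE 0.54), and the limma interaction test did not pass (adjusted p = 0.63). Without Blood 22 it was -2.66 (adjusted p = 0.0045), and Blood then rests on Blood 21 with 0 reads of the gene, assumed to vary like the other groups.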

How the results depend on the processing

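No paired analysis was possible because the labels give the groups no shared replicate numbers. In no alternative did a called collagen gene change direction. Of 16 members called higher in MI than in Blood, a mean of at least 20 (fewer genes tested) left 10, voom gave 9 and a fit to these groups alone gave 7, and leaving out 1 library gave 11 to 16. The count of lower members moved from 0 to 1 with edgeR under either scaling, DESeq2, voom and without MI 13 and Blood 21, and was 0 to 1 over left-out libraries (1 without MI 13). Of 9 called higher in MI + MSC than in Blood + MSC, DESeq2, voom, the groups alone and the setting without MI 13 and Blood 21 gave 14 each, and left-out libraries gave 4 to 13, with 4 without Blood + MSC 23. The lower count there moved from 0 to 1 with edgeR under either scaling, voom, the groups alone and without MI 13 and Blood 21. In MI + MSC against MI, voom gave 2 lower in place of 0. Blood + MSC against Blood and the interaction each gave 0 to 1 over left-out libraries, with 1 without Blood 22. The median log2 fold change in MI against Blood was 1.39 to 2.44 over left-out libraries, with 1.39 without Blood 22. Where no reason is given, the cause was not tested. Several settings have no share of all tested genes, among them the groups alone, a mean of at least 20 and each left-out library. There, a change in the members called cannot be told from a change over all genes.

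Over all tested genes called in MI against Blood, 61.2% were higher, and 82.3% under library size scaling. In MI + MSC against Blood + MSC this share was 58.5%, and 48.2% under TMM scaling.

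Class shares moved with gene length by construction. In MI, the mean log2 ratio of fibrillar to type IV was -0.04 by merged exons and 0.40, 0.40 and 0.27 by longest transcript, coding length and no length, so its sign changed, and the fibrillar share went from 34.6% to 40.1%, 37.3% and 38.8%. By longest transcript and coding length, the mean type IV share was 30.0% and 27.8% in MI, 18.03% and 16.9% in MI + MSC and 6.03% and 5.95% in Blood + MSC. With no length it was 19.6% in MI + MSC and 6.79% in Blood + MSC. By longest transcript, coding length and no length, the fibrillar share was 79.2%, 76.2% and 78.2% in the Blood group, against 75.6%, 72.6% and 74.6% with MSC. The log2 ratio of fibrillar to type IV was 1.58 by longest transcript and 1.56 by coding length in MI + MSC, 4.01 by longest transcript in Blood, and 3.65, 3.61 and 3.46 in Blood + MSC.

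MI 13 and Blood 21 limit low genes, as 3 reads there are worth 25.2 and 21.2 normalized counts.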
